A study of Rattus norvegicus with 12 samples.

Results

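Neutrophil alarmin, receptor and granule genes, 10 in all, were followed in the left ventricle (LV) of rats 1 day after surgery: S100a8, S100a9, Lcn2, Ngp, Prok2, Padi4, Fpr1, Fpr2, Trem1 and Slpi. They are 10 of the 34599 loci in the deposited count table and were taken by symbol. The list was chosen on earlier readings of these data, in particular on low or absent counts in Sham rats and higher counts after coronary ligation (Prok2 was listed as absent in Sham and rising in both ligated groups). Levels against Sham are therefore given as a description without a test. The contrast between the ligated groups was not part of that choice as it was stated, though results were in view when the list was drawn up, and it was tested across all genes.

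RNA-seq covered 12 male SD rats, 4 per group. Sham rats had a thoracotomy and no ligation of the left anterior descending (LAD) coronary artery. MI (myocardial infarction) rats had the LAD ligated and received no patch. iCarP+/Light+ rats had the LAD ligated, the single-celled green alga Chlorella injected as a suspension into the infarcted LV, and iCarP, an illuminative patch carrying an optical fiber, glued to the epicardium with an adhesive gel and lit without interruption for a few hours after implantation, not until sampling. All rats were operated on under chloral hydrate. Injection, alga, glue, patch and illumination thus all set iCarP+/Light+ apart from MI rats, and their parts cannot be told apart here. The methods give an age for the SD rats, 6 weeks, under another experiment and do not repeat it for the infarction experiment. iCarP+/Light- rats were not analysed here. Each library is 1 rat, and total counts were 14064414 to 17136958 per rat.

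Neutrophils are short-lived granulocytes that enter an infarct within hours to days and bring many of these products with them. S100a8 and S100a9 encode the calcium-binding pair that forms calprotectin, an alarmin sensed by Tlr4 and by Ager (RAGE). Fpr1 and Fpr2 encode formyl peptide receptors, which detect bacterial and mitochondrial peptides, and Trem1 encodes a receptor that amplifies inflammatory signals through the adaptor Tyrobp. Prok2 (Bv8) is a secreted prokineticin, Padi4 citrullinates histones during release of neutrophil extracellular traps, Lcn2 binds bacterial siderophores, Slpi inhibits neutrophil serine proteases, and Ngp is a granule protein made during neutrophil maturation in bone marrow. Bulk tissue was sequenced, so more cells of a type and more RNA per cell cannot be told apart.

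The 250 bases before the RefSeq start of 4 of these genes are shown here, because these genes span the range of patterns described below: S100a9 had the highest level per length in both ligated groups, Lcn2 the largest difference between the ligated groups, Prok2 had no counts in Sham, and Ngp stayed near the detection floor. The sequences are from the RefSeq promoter table (GRCr8), read 5′ to 3′ on the gene's strand, and 7 of the 10 genes had an entry. Capitals mark matches, on either strand, to the letters TTGCNNAA (C/EBP), GAGGAA (PU.1) and TTCNNNGAA (STAT), where N is any base. The windows are chr2:178490623-178490872 (minus strand), chr3:36081781-36082030 (minus strand), chr4:133917934-133918183 (minus strand) and chr8:119272355-119272604 (plus strand).
S100a9: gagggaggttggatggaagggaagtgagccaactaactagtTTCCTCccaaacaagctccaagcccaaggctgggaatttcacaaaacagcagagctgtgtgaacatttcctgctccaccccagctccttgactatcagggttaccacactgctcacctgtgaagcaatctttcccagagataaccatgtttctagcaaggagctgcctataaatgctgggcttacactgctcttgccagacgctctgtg
Lcn2: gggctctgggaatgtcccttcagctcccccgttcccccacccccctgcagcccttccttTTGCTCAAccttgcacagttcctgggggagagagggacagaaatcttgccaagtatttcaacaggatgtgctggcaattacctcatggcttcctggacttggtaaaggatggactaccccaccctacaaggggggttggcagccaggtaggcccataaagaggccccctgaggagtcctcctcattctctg
Prok2: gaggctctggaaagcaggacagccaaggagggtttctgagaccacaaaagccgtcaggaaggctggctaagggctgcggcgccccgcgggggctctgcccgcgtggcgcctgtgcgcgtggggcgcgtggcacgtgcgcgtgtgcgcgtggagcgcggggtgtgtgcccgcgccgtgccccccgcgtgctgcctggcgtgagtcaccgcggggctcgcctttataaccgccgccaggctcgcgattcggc
Ngp: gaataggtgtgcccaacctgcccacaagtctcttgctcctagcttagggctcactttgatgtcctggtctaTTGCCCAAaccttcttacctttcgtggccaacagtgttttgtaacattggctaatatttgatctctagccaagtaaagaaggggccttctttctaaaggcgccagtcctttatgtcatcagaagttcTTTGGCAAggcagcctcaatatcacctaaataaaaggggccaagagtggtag

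The C/EBP letters were found in 3 of the 7 windows (Lcn2, Ngp and Fpr2) and in 9.22% of all 33469 promoter windows of that length. The PU.1 letters were found in 3 of the 7 (S100a9, Fpr1 and Fpr2) and in 23.3% of all windows, and the STAT letters in 0 of the 7 and in 7.67% of all. Lcn2 carried 1 C/EBP match, at bases -191 to -184 from the start, and Ngp carried 2, at -179 to -172 and at -52 to -45. S100a9 carried 1 PU.1 match, at -209 to -204. The marked matches did not overlap each other in these windows. Prok2 and Trem1 held none of the letters searched. These are matches of letters only, and no binding was measured.

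Values below are TMM-normalized CPM, that is, counts scaled to the effective size of each library. A level of 3 counts in a library, 0.144 to 0.228 CPM, was taken as the floor, which covers counting error only. Lower counts are printed where they occurred. Of the 10 genes 8 passed the filter on low counts, and they passed it in all 8 ligated rats. Among them Prok2, Padi4 and Fpr1 were above the filter's level in 0 of the 4 Sham rats. Ngp and Fpr2 did not pass and were not tested.

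In iCarP+/Light+ hearts, all 8 tested genes were higher than in MI hearts, by 7.35-fold (Trem1) to 35.0-fold (Lcn2), and each had adjusted p below the threshold of 0.05 in edgeR's quasi-likelihood test. In every case the 4 iCarP+/Light+ rats lay above the 4 MI rats, as for 12.1% of all genes tested. Of all 15101 genes tested, 11.6% were higher and 2.01% lower in this contrast, 1747 and 304 genes. Of the 10 genes 0 were lower. Among all tested genes ranked by the same log2 fold change, the 8 took places 60 (Lcn2) to 240 (Trem1). Together the 10 genes held 0.0017% to 0.0031% of a Sham library, 0.057% to 0.127% of an MI library and 0.316% to 0.929% of an iCarP+/Light+ library.

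**Figure D1:**
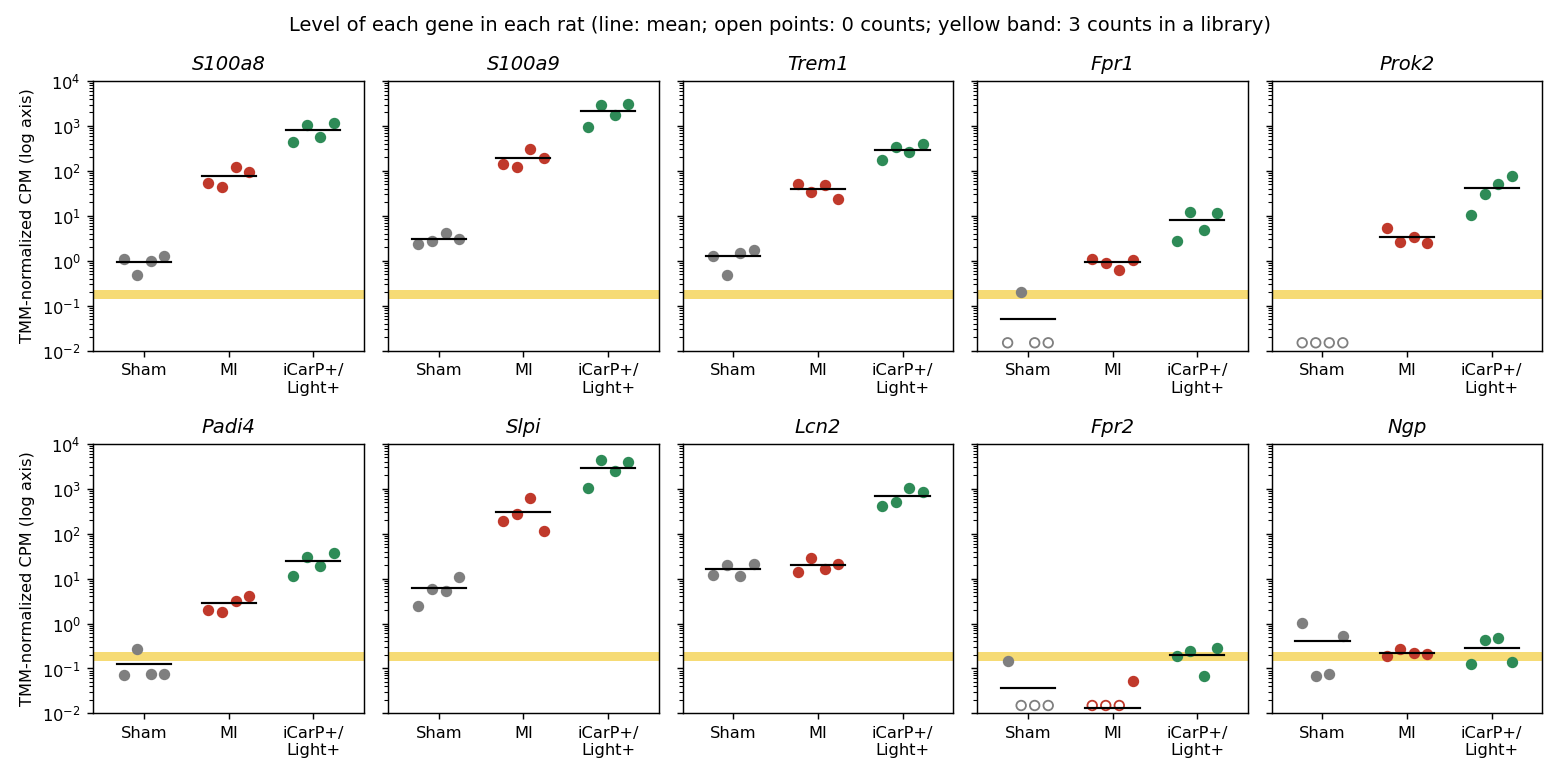
Level of each of the 10 genes in each of the 12 rats, as TMM-normalized CPM on a log axis, with 4 rats per group and a line at each group mean. Open points at the bottom are rats with 0 counts and the yellow band is the level of 3 counts in a library. The 8 tested genes step up from MI to iCarP+/Light+ without overlap, Lcn2 overlaps between Sham and MI, and Ngp and Fpr2 stay around the band.

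S100a8 lies at chr2:190073815-190074354 on the plus strand in the file's coordinates (rn6, ENSRNOG00000011557). Its levels were 1.08, 0.478, 0.987 and 1.25 CPM in Sham rats 1, 2, 3 and 5, and 54.3, 44.9, 119.6 and 96.9 CPM in MI rats 1, 3, 4 and 5. They were 446, 1041, 574 and 1191 CPM in iCarP+/Light+ rats 1, 2, 4 and 5. The 3 groups did not overlap. The mean rose from 78.9 ± 35.3 (SD, n = 4) in MI to 813 ± 359 CPM in iCarP+/Light+, a log2 fold change of 3.37 ± 0.38 (SE; edgeR adjusted p = 7.18e-05).

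S100a9 is 23199 bases away on the opposite strand (chr2:190097554-190100276, ENSRNOG00000011483). Its levels were 2.31, 2.80, 4.25 and 3.02 CPM in the Sham rats, 144, 124, 301 and 191 CPM in the MI rats, and 933, 2890, 1761 and 3161 CPM in the iCarP+/Light+ rats, each in the order of rat numbers given for S100a8, which is kept for every gene here. The order of the rats within each ligated group was the one seen for S100a8. The log2 fold change over MI was 3.53 ± 0.39 (SE; edgeR adjusted p = 6.20e-05). Divided by gene length, S100a9 RNA was 1.77 ± 0.25 (SD, n = 4) times S100a8 RNA in MI rats and 1.89 ± 0.29 times in iCarP+/Light+ rats. The ranges of that ratio, 1.41 to 1.97 and 1.49 to 2.19, overlapped, so the alarmin pair stayed in a similar ratio while its level differed more than 10-fold. In Sham rats, with 7 to 17 counts of S100a8 each, the ratio ran from 1.52 to 4.18.

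Among the receptors, Trem1 (chr9:14727976-14809447, minus strand, ENSRNOG00000022859) was the most abundant per length. It was at 1.30, 0.478, 1.52 and 1.77 CPM in Sham, 52.1, 34.5, 49.7 and 24.1 CPM in MI, and 172, 343, 268 and 396 CPM in iCarP+/Light+. Every iCarP+/Light+ rat was more than 3 times the highest MI rat, and the log2 fold change was 2.88 ± 0.32 (SE; edgeR adjusted p = 6.53e-05). The listed span of Trem1 holds a gene on the other strand with 63 counts in all 12 rats, against 21161 for Trem1. Whether reads were counted by strand is not given in the sources used here.

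Fpr1 (chr1:59765835-59767042, plus strand, ENSRNOG00000011174) had counts in 1 of the 4 Sham rats, 3 in rat 2. It was at 1.10, 0.917, 0.615 and 1.06 CPM in MI and 2.69, 12.2, 4.88 and 11.8 CPM in iCarP+/Light+. The lowest iCarP+/Light+ rat was above the highest MI rat, with a log2 fold change of 3.08 ± 0.55 (SE; edgeR adjusted p = 0.00195). Fpr2, its paralog 33941 bases away (chr1:59800984-59802401, minus strand, ENSRNOG00000042605), barely registered: 2, 0, 0 and 0 counts in the Sham rats, 0, 0, 0 and 1 in the MI rats, and 3, 4, 1 and 4 in the iCarP+/Light+ rats. The summed level was 0.195 CPM in iCarP+/Light+ (exact Poisson interval 0.101 to 0.341) and 0.0131 CPM in MI (0.000333 to 0.0732), intervals that cover counting error only. Without the low-count filter its log2 fold change was 3.26 ± 1.18 (SE; edgeR adjusted p = 0.115). An unnamed locus beside it had 0, 8 and 14 counts in Sham, MI and iCarP+/Light+, and Fpr-rs3 had 0. Reads shared between these near relatives could have been split or dropped, so the values of the Fpr genes are uncertain to that extent.

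Prok2 (chr4:132157556-132171153, minus strand, ENSRNOG00000010898) had 0 counts in each of the 4 Sham rats. It was at 5.31, 2.59, 3.47 and 2.50 CPM in MI, from 47 to 111 counts a rat, and at 10.6, 30.5, 49.9 and 76.2 CPM in iCarP+/Light+, from 169 to 1083 counts. Against the Sham floor of 3 counts per library, the mean level was at least 15.9-fold higher in MI and at least 192-fold higher in iCarP+/Light+. Between the ligated groups it rose by 3.58 ± 0.55 on the log2 scale (SE; edgeR adjusted p = 0.00176). Its 4 iCarP+/Light+ rats spanned 7.20-fold, the widest spread among the 8 tested genes in that group. With the replicate number as a block, its log2 fold change was 3.30 and the adjusted p became 0.0688, the single call of the 8 that this changed.

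Padi4 (chr5:159260675-159293673, minus strand, ENSRNOG00000006855) had 1, 4, 1 and 1 counts in the Sham rats. It reached 2.01, 1.83, 3.19 and 4.15 CPM in MI and 11.6, 30.4, 19.0 and 37.2 CPM in iCarP+/Light+. The ligated groups did not overlap, and the log2 fold change was 3.13 ± 0.38 (SE; edgeR adjusted p = 1.19e-04).

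Slpi (chr3:160799981-160802433, minus strand, ENSRNOG00000046699) was at 2.46, 5.80, 5.24 and 10.8 CPM in Sham, 192, 269, 615 and 114 CPM in MI, and 1038, 4321, 2418 and 3954 CPM in iCarP+/Light+. This protease inhibitor had the widest spread of the tested genes in MI rats, 5.40-fold, and still did not overlap between groups. Its log2 fold change over MI was 3.30 ± 0.58 (SE; edgeR adjusted p = 0.00193), and 3.93 without MI rat 4, the highest MI rat.

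Lcn2 (chr3:11414186-11417546, minus strand, ENSRNOG00000013973) departed from the others. Its levels were 12.3, 20.0, 11.2 and 20.9 CPM in Sham and 14.4, 28.3, 16.7 and 20.9 CPM in MI, so these groups overlapped. In iCarP+/Light+ the levels were 409, 493, 1046 and 863 CPM. The mean went from 20.1 ± 6.12 (SD, n = 4) in MI to 703 ± 302 CPM, a log2 fold change of 5.13 ± 0.37 (SE; edgeR adjusted p = 3.48e-06). Its 95% interval, 4.33 to 5.93, lay above the point estimates of the other 7 genes, 2.88 to 3.58, but the difference between genes was not tested.

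Ngp (chr8:118662335-118665699, plus strand, ENSRNOG00000024330), a granule protein of maturing granulocytes, had 14, 1, 1 and 7 counts in Sham, 4, 5, 4 and 4 in MI, and 2, 7, 7 and 2 in iCarP+/Light+. The groups overlapped and the highest rat, at 1.01 CPM, was a Sham rat. Without the low-count filter its log2 fold change between the ligated groups was 0.36 ± 0.79 (SE; edgeR adjusted p = 0.854).

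Against Sham, values that the choice of genes had used, MI rats had a mean 82.8-fold higher for S100a8, 61.3-fold for S100a9, 49.1-fold for Slpi and 31.7-fold for Trem1, while Lcn2 was 1.24-fold higher with overlap. In iCarP+/Light+ the folds over the same Sham rats were 853, 706, 483 and 233, and 43.6 for Lcn2. Without MI rat 4 the log2 fold change of Slpi in MI was 4.99 in place of 5.62. Padi4 and Fpr1 rested on 7 and 3 Sham counts. Their ratios of summed counts, with 95% intervals for counting error only, were 21.9 (10.4 to 55.1) and 17.2 (5.64 to 85.3) in MI, and 192 (93.1 to 479) and 145 (49.4 to 706) in iCarP+/Light+. Sham rat 2 held 4 of the 7 and all 3 of these counts. Without it the log2 fold change of Padi4 was 5.10 in MI and 8.23 in iCarP+/Light+, against 4.38 and 7.52 with it, and Fpr1 was at 0 in every remaining Sham rat. Of the 10 genes 7 did not overlap between Sham and MI, and 8 did not overlap between Sham and iCarP+/Light+. Of all tested genes, 27.6% did not overlap and were higher in MI than Sham, and 31.9% in iCarP+/Light+ than Sham. By adjusted p, 30.2% were higher and 33.6% lower in MI than Sham, and 33.5% higher and 33.0% lower in iCarP+/Light+ than Sham. The fold changes against the shared Sham rats are not independent of each other.

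Per kilobase of gene length, used here to compare levels of different genes, the order of the 10 genes changed with the group. No correction for fragment length was made, and S100a8 (377 bases), Prok2 (387) and S100a9 (528) are short. These orders and the ratio of S100a9 to S100a8 are therefore approximate. In Sham rats Lcn2 was highest at 18.1 ± 5.69 CPM per kb (SD, n = 4), followed by Slpi at 7.08 ± 4.04 and S100a9 at 5.86 ± 1.56, which overlapped each other. In MI rats S100a9 (360 ± 150 CPM per kb), Slpi (348 ± 258) and S100a8 (209 ± 93.7) led and overlapped one another, above Trem1 at 39.1 ± 12.9 and Lcn2 at 22.6 ± 6.89, which also overlapped. In iCarP+/Light+ rats the first places were S100a9 (4140 ± 1955), Slpi (3426 ± 1762) and S100a8 (2156 ± 952), again overlapping, and then Lcn2 (791 ± 340), whose 4 rats lay below all rats for S100a8. Trem1 (287 ± 94.4), Prok2 (108 ± 72.3), Padi4 (10.9 ± 5.06) and Fpr1 (6.54 ± 4.00) followed. Trem1 overlapped with Prok2, and Padi4 with Fpr1. All 34599 loci were also ranked by mean level per length. S100a9 took place 8210 in Sham hearts, place 190 after MI and place 14 with iCarP+/Light+. The places of Slpi were 7505, 196 and 17 in the same order, those of S100a8 10825, 321 and 25, and those of Lcn2 4134, 3294 and 95.

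The rats of a group did not contribute alike. iCarP+/Light+ rat 1 was the lowest of its group for all 8 tested genes, and rat 5 was the highest for 5 of them, rat 2 for 2 (Fpr1 and Slpi) and rat 4 for 1 (Lcn2). In MI no rat was consistently extreme: rats 1 and 4 were each highest for 3 genes and rats 3 and 5 each lowest for 3. The summed level of the 10 genes was 3023 to 9690 CPM in iCarP+/Light+, 455 to 1110 CPM in MI and 20.7 to 38.3 CPM in Sham. Left out 1 rat at a time, the count of 8 higher genes was the same for each of the 12 rats.

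**Figure D2:**
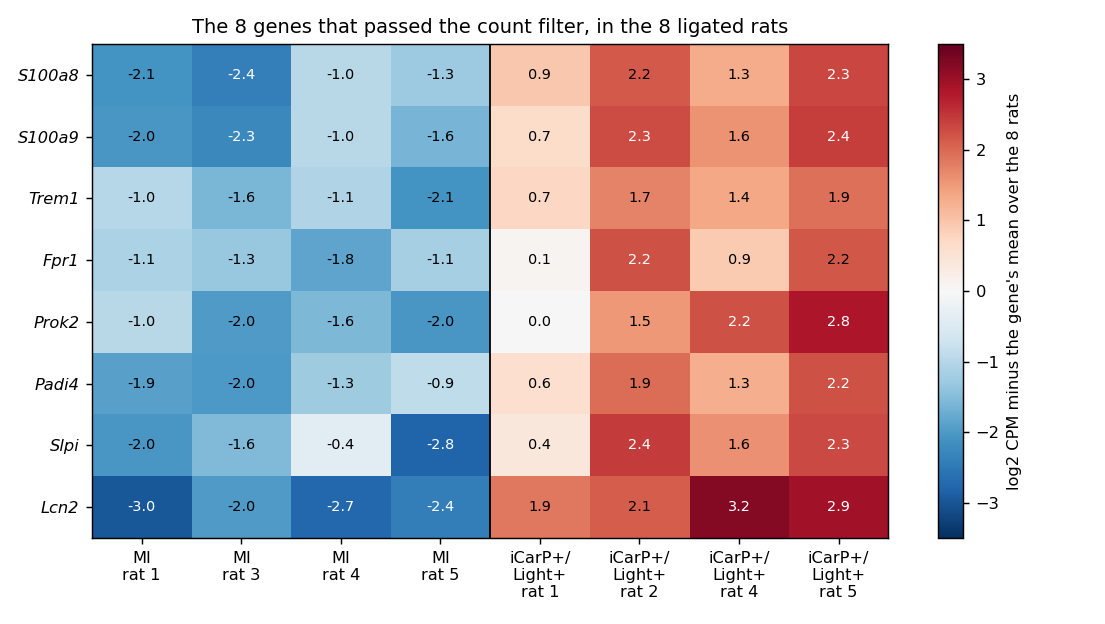
log2 CPM of the 8 tested genes in each of the 8 ligated rats, minus the gene's mean over those rats (color and printed value, log2 units). iCarP+/Light+ rat 1 is the palest of its group in every row, and Lcn2 has the strongest contrast between the groups.

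Genes with roles next to these 10 were compared in the same fit. Of 15 binding partners and relatives, 14 were in the table and 10 were tested: 3 were higher in iCarP+/Light+ than MI and 0 lower, with a median log2 fold change of 0.68 against 3.33 for the 8 tested genes and 0.01 for all genes. Tlr4, the calprotectin receptor, was 12.7, 23.1 and 37.1 CPM on average in Sham, MI and iCarP+/Light+, and rose by 0.68 ± 0.15 on the log2 scale over MI (SE; edgeR adjusted p = 0.00909). Tyrobp, the adaptor of Trem1, rose by 1.00 ± 0.21 (SE; edgeR adjusted p = 0.00578). Anxa1, a ligand of formyl peptide receptors that dampens neutrophil entry, rose by 1.13 ± 0.21 (SE; edgeR adjusted p = 0.00290).

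For these 3 partners the 4 iCarP+/Light+ rats lay above the 4 MI rats. Cd14, the Tlr4 coreceptor, had a log2 fold change of 0.69 with a 95% interval of 0.16 to 1.22 and did not pass (edgeR adjusted p = 0.0887). Ager (0.41, interval -0.15 to 0.97), the prokineticin receptor Prokr1 (0.76, interval -0.42 to 1.95) and the lipocalin receptor Slc22a17 (-0.40, interval -0.85 to 0.06) did not pass either. Nor did Treml1 (1.40, interval 0.02 to 2.79), Padi2 (0.34, interval -0.40 to 1.08) or Padi3 (0.19, interval -1.02 to 1.41). Prokr2, Lrp2, Fpr3 and Padi1 were too low to be tested, and Ly96 was not analysed here. Against Sham, 7 of the 10 tested partners were higher and 2 lower in MI, and again 7 higher and 2 lower in iCarP+/Light+. Prokr1, Padi2 and Padi3, 3 of the 7, had Sham means below the filter's level of 0.618 CPM and passed it through ligated rats, which fixed these counts in part, and with 10 counts asked for in every sample 4 were higher in each comparison. The 2 lower ones were Ager and Slc22a17, the receptors for S100 proteins and for Lcn2, by 1.51 and 1.61 in log2 units in MI (edgeR adjusted p = 1.96e-04 and 1.80e-05).

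The calcium-binding relatives in the S100 family had smaller fold changes between the ligated groups, though the difference from the 8 genes was not tested. Of 11 other S100 genes in the count table, 9 were tested, and S100a11 alone was higher in iCarP+/Light+ than MI (log2 fold change 1.16 ± 0.18, SE; edgeR adjusted p = 6.62e-04), with 0 lower and a median of -0.16. That is 11.1% of the 9, near the 11.6% of all tested genes that were higher. S100b followed at 0.11 (interval -0.57 to 0.79), and the lowest were S100a4 at -0.44 (interval -0.84 to -0.04; edgeR adjusted p = 0.149) and S100a3 at -0.41 (interval -1.54 to 0.71). Of all tested genes, 30.2% were higher and 33.6% lower in MI than Sham, and 33.5% and 33.0% in iCarP+/Light+ than Sham. Of the 9, 4 were higher and 2 lower in MI than Sham, and 4 higher and 3 lower in iCarP+/Light+ than Sham. Of these, picked after their values were seen, S100a4 was higher in MI than Sham by 4.20 ± 0.21 and S100a6 by 2.46 ± 0.20 on the log2 scale (SE; edgeR adjusted p = 3.67e-08 and 5.23e-07). Summed, the other S100 genes were 1.14 times their MI level in iCarP+/Light+, where the 10 genes were 11.0 times theirs.

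Among 7 tested granulocyte transcription factors of 8, 4 were higher in iCarP+/Light+ than MI and 0 lower. Cebpb, a factor of emergency granulopoiesis and of inflammatory gene expression, rose by 2.26 ± 0.28 on the log2 scale, from 264 to 1268 CPM (SE; edgeR adjusted p = 1.29e-04). Cebpd rose by 1.00 ± 0.23 (SE; edgeR adjusted p = 0.00915), Spi1, which encodes PU.1, by 0.91 ± 0.25 (adjusted p = 0.0254) and Stat3 by 0.40 ± 0.10 (adjusted p = 0.0203). Cebpe, the factor of late granule gene expression, had -0.01 (interval -0.51 to 0.49), and Gfi1 was too low to be tested. Cebpa (-0.49, interval -0.94 to -0.03; edgeR adjusted p = 0.163) and Irf8 (-0.47, interval -0.91 to -0.04; adjusted p = 0.156) had negative values and did not pass. The count of 4 fell to 1 without iCarP+/Light+ rat 5 and to 2 without MI rat 5 or iCarP+/Light+ rat 2. It was also 2 with the replicate block and with only the compared groups, and with total counts 2 were higher and 2 lower. Against Sham, 6 of the 7 were higher in MI and 7 of 7 in iCarP+/Light+, where Cebpe, at 0.454 CPM in Sham, passed the filter through ligated rats.

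**Figure D3:**
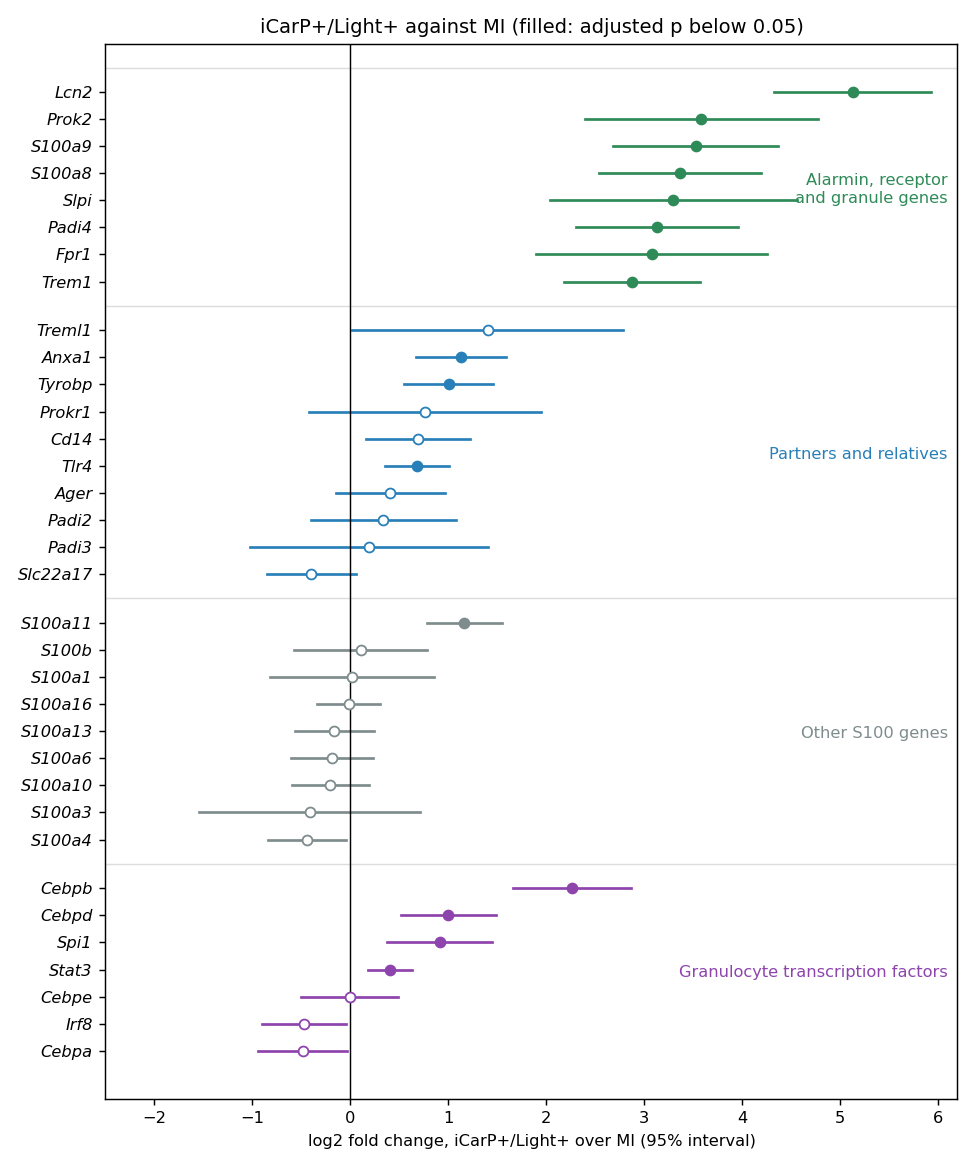
log2 fold change of iCarP+/Light+ over MI with 95% intervals for the tested genes of 4 lists, where filled points have edgeR adjusted p below 0.05. The 8 alarmin, receptor and granule genes lie between 2.88 and 5.13, while the partners, other S100 genes and transcription factors, Cebpb (2.26) excepted, lie between -0.49 and 1.40.

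Other neutrophil genes were set beside the list. They were also chosen with earlier results of these data known, so they are not an independent check of its label. Of 17 granule proteins 11 were tested: 8 were higher in iCarP+/Light+ than MI and 0 lower, with a median log2 fold change of 3.88. Olfm4, among the 8, was below the filter's level on average in Sham and in MI and passed mainly through iCarP+/Light+ rats, where it was high. The 3 that did not pass were Ctsc, the protease activator cathepsin C (-0.63, interval -1.07 to -0.19; edgeR adjusted p = 0.0592), Fcnb (0.20, interval -0.60 to 1.00) and Hp (1.43, interval -0.54 to 3.39). Under 5 of the 9 other settings 1 granule gene was called lower. The value of Hp rested on iCarP+/Light+ rat 2, at 129.6 CPM, while the other 3 rats of that group were at 2.32 to 10.2 CPM, below all 4 MI rats at 11.6 to 17.4 CPM. Mmp9 was at 0.49, 27.4 and 834 CPM in Sham, MI and iCarP+/Light+ (log2 fold change over MI 4.93 ± 0.35, SE; edgeR adjusted p = 3.13e-06). Mmp8 was at 1.13, 29.6 and 447 CPM, Camp at 0.127, 1.32 and 34.3 CPM, and Elane at 0.036, 1.36 and 21.5 CPM, with log2 fold changes over MI of 3.91, 4.70 and 3.99. By contrast the azurophil granule genes Mpo, Prtn3 and Ctsg, the specific granule gene Ltf, and Cd177 had group means of at most 0.354 CPM, and single rats of at most 0.985 CPM (Cd177, 14 counts in 1 iCarP+/Light+ rat). Mpo, Prtn3, Ctsg and Ltf are known to be transcribed mainly in bone marrow precursors, as are Ngp, Elane and Camp. In MI against Sham 10 of the 11 were higher, and in iCarP+/Light+ against Sham 11 of 11, with 0 lower in both. These counts are partly fixed by the low-count filter: Elane, Camp, Pglyrp1, Mmp9, Olfm4 and Hp had Sham means below the filter's level of 0.618 CPM and passed it through ligated rats.

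Of 18 surface and recruitment genes with counts given, 17 were tested, and 14 were higher and 1 lower in iCarP+/Light+ than MI (median log2 fold change 2.51). The 2 that did not pass were Itgb2 (0.63, edgeR adjusted p = 0.0547) and C5ar1 (0.40, edgeR adjusted p = 0.172). Selplg and Ptafr passed with log2 fold changes of 0.94 each, so the rise was not large for every gene of the list. Csf3r, the receptor for the granulocyte growth factor, was at 2.48, 135 and 862 CPM in Sham, MI and iCarP+/Light+, and Cxcr2, the chemokine receptor that draws neutrophils into tissue, at 1.42, 28.3 and 240.0 CPM. Il1r2 rose by 3.97, Clec4e by 4.00 and Retnlg by 3.08 in log2 units over MI, each with edgeR adjusted p of 2.86e-04 or less. Cxcr1 was not tested, with a mean of 0.146 CPM in iCarP+/Light+ and 0 counts in MI. Fcgr3a was the gene that fell, by 1.98 log2 units (edgeR adjusted p = 0.00988). Against Sham 16 of the 17 were higher and 0 lower in each ligated group, counts that the filter fixed in part as for the granule genes. Itgam and Mmp25 were not analysed here.

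**Figure D4:**
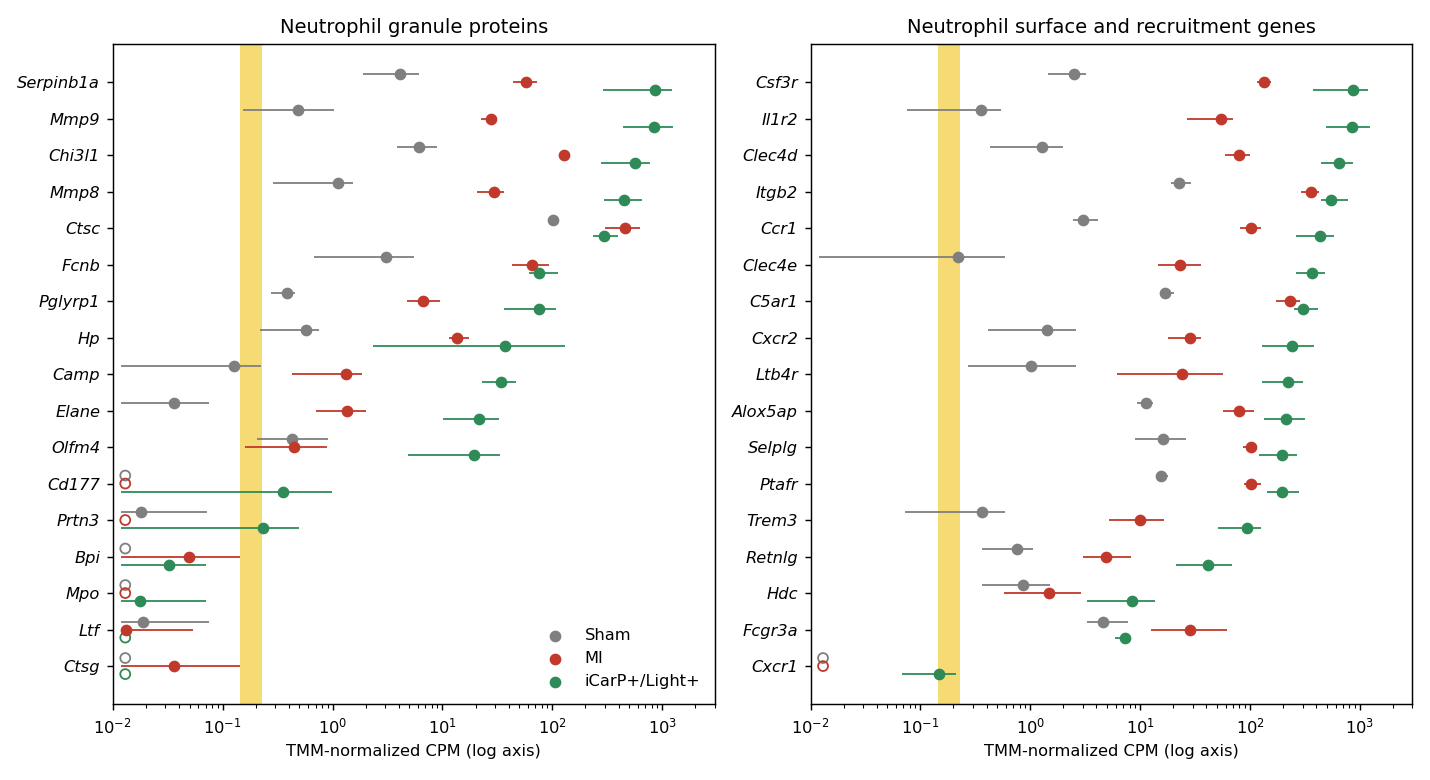
Group means of other neutrophil granule genes (left) and surface and recruitment genes (right) as TMM-normalized CPM on a log axis, with lines from the lowest to the highest of 4 rats and open points at the left for groups at 0. Lines that start at the left edge include a rat at 0 counts. The yellow band is 3 counts in a library. Most tested genes rise from Sham to MI to iCarP+/Light+, while Mpo, Ctsg, Ltf and Bpi stay below or within the band and Prtn3 and Cd177 pass it in iCarP+/Light+ rats alone.

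Markers of other cells moved as well. Between MI and iCarP+/Light+, 5 of 10 macrophage and monocyte markers were lower and 1 higher, and their summed level was 879 to 1638 CPM in MI and 620 to 875 CPM in iCarP+/Light+. Of 7 red blood cell genes 4 were higher and 0 lower, with sums of 2504 to 6931 and 6184 to 17469 CPM. Cardiomyocyte markers were 2487 to 4803 CPM in MI and 1878 to 5787 CPM in iCarP+/Light+ with 0 of 8 passing the threshold, and 39076 to 43887 CPM in Sham. Of 7 lymphocyte markers 1 was lower, of 2 platelet genes 0 passed, of 3 epithelial markers 1 was lower, of 3 endothelial markers 0 passed and of 4 fibroblast markers 1 was higher. With 4 rats per group, a gene that did not pass is not shown to be unchanged. The part of these shifts in the levels of the 10 genes was not tested. Mitochondrial genes took 22.8% to 28.9% of Sham counts, against 8.52% to 11.5% for MI rats and 7.14% to 14.2% for iCarP+/Light+ rats.

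The calls of the 8 tested genes did not depend on the scaling, while their values moved about as far as those of all genes. With total counts in place of TMM, the median log2 fold change of all genes between the ligated groups moved from 0.01 to -0.25, and the share of called genes that were higher from 85.2% to 30.7% (77.4% with DESeq2 size factors). With total counts the log2 fold change of S100a8 was 3.09 in place of 3.37. The 8 genes were higher under each of these scalings.

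Genes outside the list followed similar profiles over the 12 rats. By the root mean square difference of centered log2 CPM, among 14001 tested genes with a mean of at least 1 CPM, the nearest to the average profile of the 8 were Pglyrp1 (0.34), Rufy4 (0.39), Serpinb1a (0.39), Rab44 (0.43) and Slc16a3 (0.44). Pglyrp1, a peptidoglycan-binding granule protein, was at 0.383, 6.72 and 75.2 CPM in Sham, MI and iCarP+/Light+. Each gene's own nearest was Fcar for S100a8 (0.55), Clec4d for S100a9 (0.50), Slc7a11 for Prok2 (0.53), Elane for Padi4 (0.43), Aqp9 for Trem1 (0.38) and RGD1307182 for Slpi (0.58). For Fpr1 it was a long noncoding RNA, AABR07044454.1 (0.46), and for Lcn2 an unnamed locus (0.44) with 0 counts in Sham, 0.0275 CPM in MI and 4.07 CPM in iCarP+/Light+. That locus passed the count filter through iCarP+/Light+ rats, where it was high. Its log2 values in Sham and MI were set mainly by the prior count, so its likeness to Lcn2 there is not informative. Prok2 and Fpr1 lay at or near the same prior level in Sham rats. All points share the same libraries, and the likeness is a description.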

How the data were processed

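RNA-seq was done on left ventricular tissue of 12 rats (Sham, MI and iCarP+/Light+, 4 per group) 1 day after surgery with a NEBNext Ultra library kit. The authors deposited raw read counts per gene, whole numbers that were neither normalized nor filtered, with Ensembl identifiers, positions and gene lengths. The submitters' processing notes name HISAT2, featureCounts and rn6, whose versions, strand setting and annotation release are not given in the sources used here. Groups were taken from the labels, which name no batch and do not say that equal rat numbers mark shared animals. The p-values judge differences between group means against the spread between rats.

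The main tests were made in edgeR 4.0.16 (R 4.3.3). filterByExpr (minimum count 10) kept 15101 of 34599 loci. After TMM scaling, all 12 rats entered 1 quasi-likelihood fit (glmQLFit, glmQLFTest) whose coefficients were the 3 group means. Each pair of groups was a contrast of that fit, and p-values were adjusted by Benjamini-Hochberg across the 15101 loci, with a threshold of 0.05. log2 CPM used a prior count of 2. CPM per kb used the length in the table. Total counts of 14064414 to 17136958 per rat give a floor of 3 counts, 0.144 to 0.228 CPM. The script was tested on simulated data with known changes.

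Members and gene lists were chosen with earlier results of these data known, and no p is given for members against Sham. The text names all 10 members, all binding partners, set granule, surface and transcription factor genes, the 2 highest and 2 lowest other S100 genes, and the nearest profiles. Ctsg, Bpi, epithelial and other marker lists served as checks. Other genes are named in counts of 5 or fewer. The values of 1 gene of the surface list are not reported here. Promoter sequences are from RefSeq (GRCr8), another build than the counts, and drawings were made with matplotlib.

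Chi-square per gene between rats of a group was 14.0 to 111 in 18 pairs, so none was a copy of another. Alternatives were DESeq2 1.42.0 and its size factors, total counts, limma-voom (limma 3.58.1), other filters, no mitochondrial genes, only the compared groups, the replicate number as a block, and each of 12 rats left out.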

Additional observations from a re-analysis of the deposited data

Results flagged for a closer look

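In groups of 4 rats, a rat was looked at again when the gap to its nearest neighbor exceeded Dixon's 95% critical share of the group's range, on the log2 CPM scale. Of 44 groups looked at, 5 met this. A chance rate of 1 in 20 would give about 2.2, but it assumes continuous values and does not hold for the 4 cases that rest on 1 to 4 counts, where ties near 0 fix the gap. Padi4 in Sham rat 2 had 4 counts where the other Sham rats had 1 (gap 0.974 of the range). Fpr1 in Sham rat 2 had 3 counts where the others had 0 (gap 1 of the range). Fpr2 in Sham rat 1 had 2 counts, and in MI rat 5 had 1 count, where the others had 0 (gap 1 in both). The summed level of the other S100 genes in MI rat 4 was 1885 CPM, where the lowest MI rat was at 1200 CPM (gap 0.956).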

How the results depend on the processing

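Every one of the 8 tested genes kept its direction between MI and iCarP+/Light+ under each of the 9 other settings that tested it and with each of the 12 rats left out, with log2 fold changes of 2.46 (Fpr1) to 5.34 (Lcn2). The count of higher genes was 3 where at least 10 counts were asked for in every sample, since that filter removed the 5 genes with fewer counts in at least 1 Sham rat, and 8 with any rat left out. With the replicate number as a block the count was 7, with Prok2 at 3.30 (adjusted p = 0.0688). Over all genes, the block gave 1157 higher and 141 lower, against 1747 and 304. It also left 2 transcription factors higher. Correlations of deviations between rats of different groups were -0.15 to 0.07 for equal numbers and -0.15 to 0.20 for unequal numbers. These ranges cannot tell whether equal numbers share a batch that touches some genes. Genes lower in iCarP+/Light+ than MI numbered 457 with DESeq2 size factors, 763 with DESeq2, 2722 with total counts, 475 with the filter on every sample and 157 to 438 with 1 rat left out (157 without iCarP+/Light+ rat 2, 164 without MI rat 1). Genes higher numbered 1125 to 2066 with 1 rat left out (1125 without iCarP+/Light+ rat 5). Total counts gave 7707 higher and 2776 lower genes in MI than Sham.

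In that comparison of the ligated groups, 1 granule gene was lower with DESeq2, its size factors, total counts, the filter on every sample or no mitochondrial genes, and 0 to 1 with a rat left out. With total counts 1 partner, 1 other S100 gene and 2 transcription factors were lower, and 2 transcription factors higher, as with only the compared groups. With a rat left out 1 to 4 were higher. Other S100 genes lower than Sham were 1 in MI and 1 in iCarP+/Light+ with total counts. With 10 counts in every sample, the genes higher numbered 4 (MI over Sham), 4 (iCarP+/Light+ over Sham) and 2 (over MI) in the granule list, 9, 8 and 6 in the surface list, and 4 and 4 over Sham in the partner list. Fewer genes were tested there, and otherwise the cause was not tested. Against Sham, total counts moved Lcn2 to 0.89 and Trem1 to 5.56 in log2 units in MI. Without Sham rat 2, Padi4 was 5.10 and 8.23 over Sham in MI and iCarP+/Light+, and Fpr1 had no Sham count. Of the recomputed fold changes and counts, 1242 were scored as alike and 44 as moved. A count was alike within a set fold limit, and a fold change over MI if its direction and call held, whatever its size. Fpr1 at 2.46 in place of 3.08 thus counted as alike. A fold change over Sham was alike if it shifted by less than the SD within the ligated groups. Among the fold changes of the 8 genes over MI 1 lost its call, and 0 values turned direction.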
